A study of Mus musculus with 6 samples.

Results

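Integrin receptor genes were examined in C2C12 myotubes after knockdown of *Dj1*. The members were the probes that the deposited report lists, ignoring case, under ITGA3, ITGA4, ITGA5, ITGA6, ITGA7, ITGAV, ITGB1, ITGB3, ITGB5 or ITGB1BP2. These are 10 of the 30854 gene names in the report and 23 of its 45281 rows, and every probe was kept separate. Of the names, 9 are integrin subunits. The name "integrin subunits" does not cover ITGB1BP2, which is melusin, a muscle protein that binds the cytoplasmic tail of the β1 subunit and is not part of the receptor.

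Integrins are receptors made of an α and a β subunit that span the plasma membrane and tie the extracellular matrix to the actin cytoskeleton. The α subunit largely decides which ligand is bound. In skeletal muscle α7β1 is the main laminin receptor of mature fibres, whereas the fibronectin receptors α4β1 and α5β1 are known from myoblasts and early myotubes.

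The C2C12 line consists of mouse myoblasts, which fuse into myotubes in medium with little serum. Myoblasts received 60 nM of scramble siRNA (3 samples) or of an siRNA against *Dj1* (3 samples) by reverse transfection, were moved to differentiation medium 48 h later and were collected after 4 days of differentiation. Both groups were therefore transfected, and each received a single kind of siRNA. The labels call the samples of a group replicates and do not say that they came from separate cultures, so the p-values measure the spread between these samples, which may be technical.

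Each RNA sample was hybridized to its own array on a single Illumina mouse BeadChip, where every probe is read on many beads. The deposited value is the mean bead signal of a probe, with a detection p-value that compares it with negative control beads. A probe counted as detected on an array when that p was under 0.05. The scramble arrays had 16985, 17399 and 18179 detected probes and the *Dj1* knockdown arrays 18704, 18857 and 18408. Noise between beads, as the median of their standard errors, came to 11.3, 8.30 and 8.66 in scramble and to 7.17, 6.36 and 5.88 in knockdown samples. Fewer probes were thus detected, and bead noise was higher, on every scramble array than on any knockdown array. The part of this difference in the results was not tested. Signals were background corrected, quantile normalized and put on a log2 scale, and probes detected on at least 3 of the 6 arrays were compared with limma. A probe was called when its adjusted p, taken over all 17890 tested probes, was under 0.05. With so few arrays every value is imprecise.

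*Dj1* itself is listed as Park7 with a single probe. Its deposited signal was 12019.5, 10900.4 and 12251.4 in scramble and 5934.8, 6585.5 and 4233.7 in knockdown myotubes. The highest knockdown value was thus well below the lowest scramble value. After normalization Park7 fell from 13.53 ± 0.14 to 12.37 ± 0.19 (log2, SD, n = 3), which is a difference of -1.16 (95% interval -1.49 to -0.84; limma, adjusted p = 0.00344).

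Most tested member probes were not called, as was also the case over all tested probes. Of the 23 member probes 10 were tested, and these belong to 8 of the 10 genes. Among them 1 was called higher after *Dj1* knockdown (Itga3) and 1 was called lower (Itgb1bp2), where 16.5% of all tested probes were called higher and 13.6% lower (30.1% in either direction). With single arrays left out, 2559 to 5271 of all tested probes were called in either direction, against 5387 with every array. Of the 9 tested probes of true subunits, only that of Itga3 was called by limma, also with any single array left out. Itga3 and Itgb1bp2 each have only 1 probe, so neither call could be checked on another probe of the gene. After normalization, scramble and knockdown arrays were fully separated in 5 of the 10 tested member probes, against 48.5% of all tested probes and 10% for a chance order of 3 and 3 arrays. The median log2 fold change was 0.08 over the tested member probes and 0.05 over all tested probes. The remaining 8 tested probes had log2 fold changes from -0.37 to 0.36 and adjusted p from 0.149 to 0.931 (limma).

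**Figure D1:**
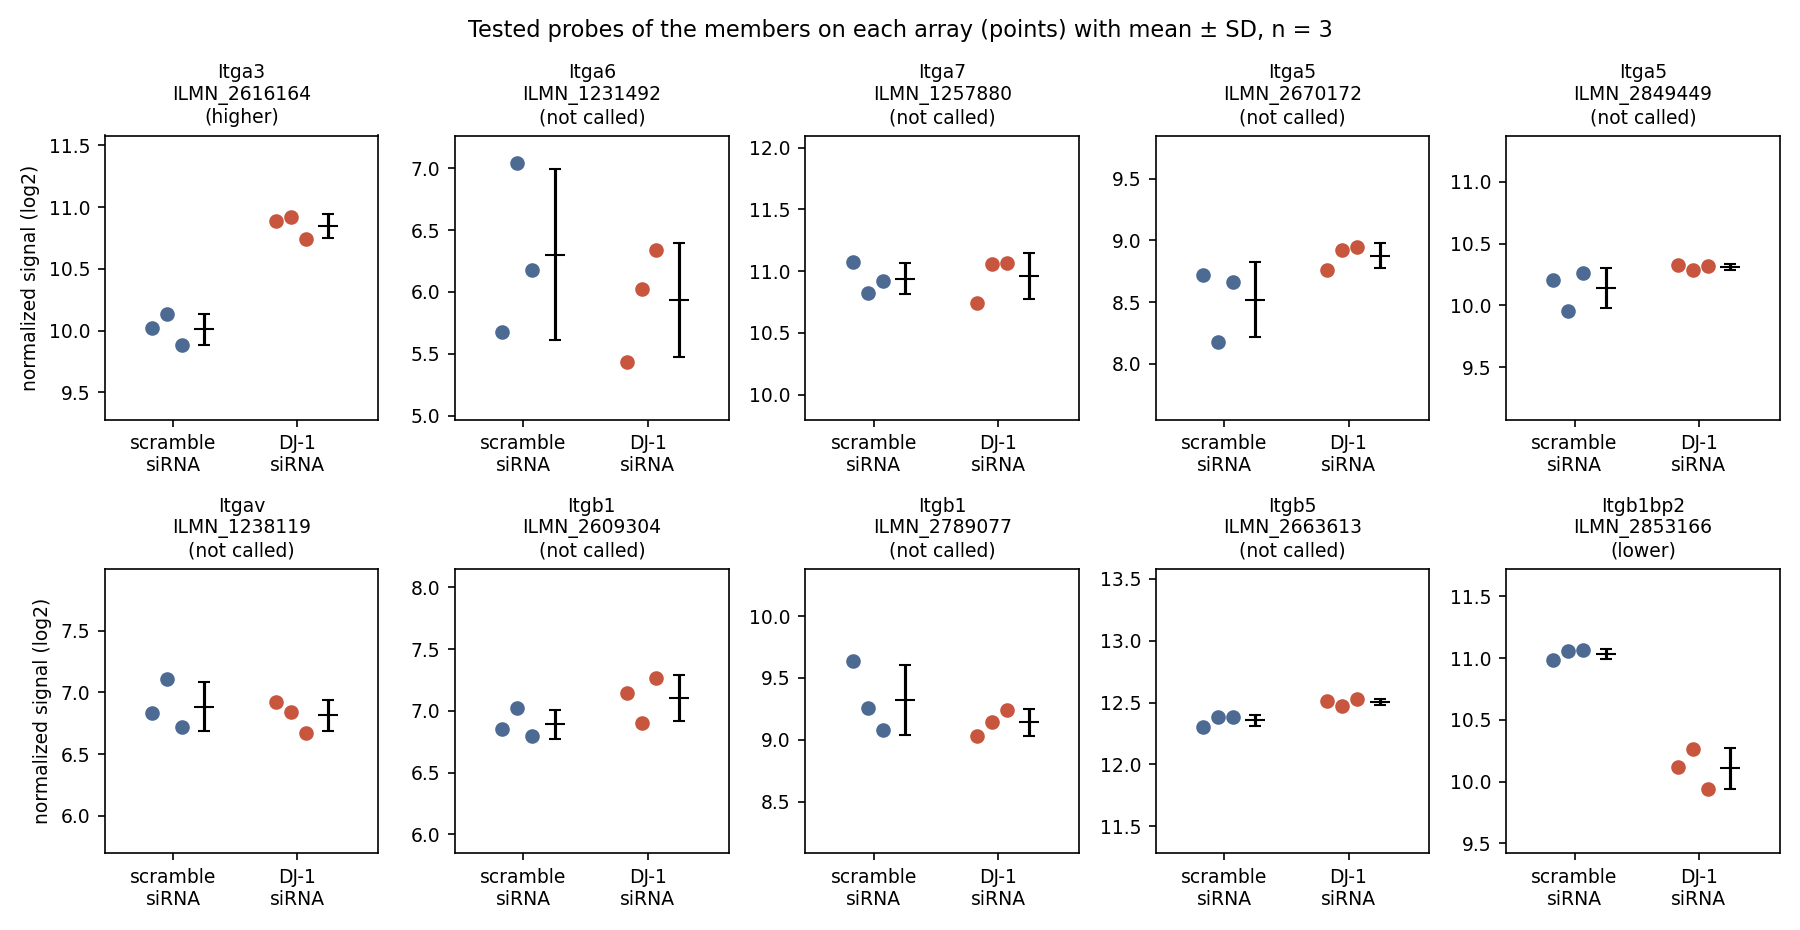
Normalized log2 signal of the 10 tested member probes on each array, with scramble siRNA in blue and DJ-1 siRNA in red and the mean ± SD (n = 3) in black beside the points. Every panel spans the same log2 range around its own mean. The groups are widely separated for Itga3 (higher) and Itgb1bp2 (lower), with 0.61 and 0.72 between their closest arrays.

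The laminin receptor subunits are encoded by Itga3, Itga6 and Itga7. ITGA3, the α3 subunit, pairs with β1 and binds laminins of the basement membrane. Its deposited signal was 1211.9, 1277.2 and 1045.0 in the scramble group and 2043.1, 2305.5 and 1633.6 in the knockdown group. Every knockdown array was above every scramble array. Each of these values is the mean of 29 to 46 beads. After normalization Itga3 rose from 10.01 ± 0.13 to 10.85 ± 0.10 (log2, SD, n = 3), which is a difference of 0.83 (95% interval 0.57 to 1.10, adjusted p = 0.00416 from limma), or 1.78-fold. These are bulk samples, in which fewer or more cells of a type and less or more RNA per cell cannot be told apart.

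ITGA7, the α7 subunit that takes over as laminin receptor during muscle differentiation, gave 2319.2, 1964.9 and 1991.4 with scramble siRNA and 1858.4, 2549.4 and 2037.6 with *Dj1* siRNA. The knockdown arrays held both the lowest and the highest value, and the groups overlapped. Means after normalization were 10.94 ± 0.13 for scramble and 10.96 ± 0.19 for knockdown (log2, SD, n = 3). The log2 fold change was 0.02 (adjusted p = 0.931 from limma). Its 95% interval ran from -0.30 to 0.33, which leaves room for a change of that size either way, and its sign turned when single arrays were left out.

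ITGA6, the α6 subunit, was read by 1 tested probe of 4. That probe was dim, with 190.3, 279.7 and 197.3 in scramble and 173.8, 206.7 and 196.3 in knockdown myotubes. Scramble replicate 2 stood above the other arrays, which overlapped between the groups. The log2 fold change of -0.37 (95% interval -1.27 to 0.54, adjusted p = 0.498 from limma) depended on that array and was 0.00 without it, and it was -0.15 without background correction. The other 3 Itga6 probes were not detected on any array, with detection p from 0.0684 to 0.972.

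The α subunits of the fibronectin receptors are encoded by Itga5 and Itga4. ITGA5, the α5 subunit of the classical fibronectin receptor, has 2 probes. On ILMN_2670172 the deposited signal was 579.3, 445.8 and 528.6 in the scramble group and 562.3, 665.2 and 545.8 in the knockdown group. Scramble replicate 2 was the lowest array, and the deposited values of the groups overlapped. After normalization the lowest knockdown array lay 0.04 above the highest scramble array on the log2 scale, and the log2 fold change was 0.36 (95% interval -0.04 to 0.75, adjusted p = 0.149 from limma). On ILMN_2849449 the signal was 1349.0, 1157.0 and 1309.3 with scramble siRNA and 1425.2, 1537.1 and 1239.3 with *Dj1* siRNA. Here too scramble replicate 2 was the lowest array. The log2 fold change was 0.17 (95% interval -0.09 to 0.44, adjusted p = 0.283 from limma). Both Itga5 probes thus had a positive log2 fold change and neither was called. Without scramble replicate 2 the values were 0.18 and 0.08.

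ITGA4, the α4 subunit that binds fibronectin and the cell adhesion molecule VCAM-1, was not detected. None of its 6 probes, 3 of them designed on RefSeq transcripts, passed on any of the 6 arrays. Their deposited signals lay between 125.7 and 174.9 and their detection p was never under 0.05. No fold change is given, since both groups were at background.

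ITGAV, the αV subunit, binds vitronectin and other ligands together with β1, β3 or β5. On its tested probe (ILMN_1238119) the signal was 253.9, 286.1 and 229.6 in scramble and 254.2, 261.0 and 214.0 in knockdown myotubes. The groups overlapped almost fully. The log2 fold change was -0.07 (95% interval -0.39 to 0.25, adjusted p = 0.725 from limma), and it was 0.04 without scramble replicate 2 and -0.03 without background correction. A second Itgav probe (ILMN_1251946) was detected on 2 knockdown arrays and on none of the scramble arrays. It was not tested because 3 detected arrays were required. For a fold value, each scramble array was given the higher of its own normalized signal and the lowest one of any detected probe. The knockdown group was then 1.09-fold higher. This is not a firm minimum, since the knockdown mean includes replicate 3, where the probe was not detected. The deposited values overlapped, as knockdown replicate 3 (160.2) lay below scramble replicates 1 and 2 (170.5 and 174). The other 2 Itgav probes were not detected on any array.

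**Figure D2:**
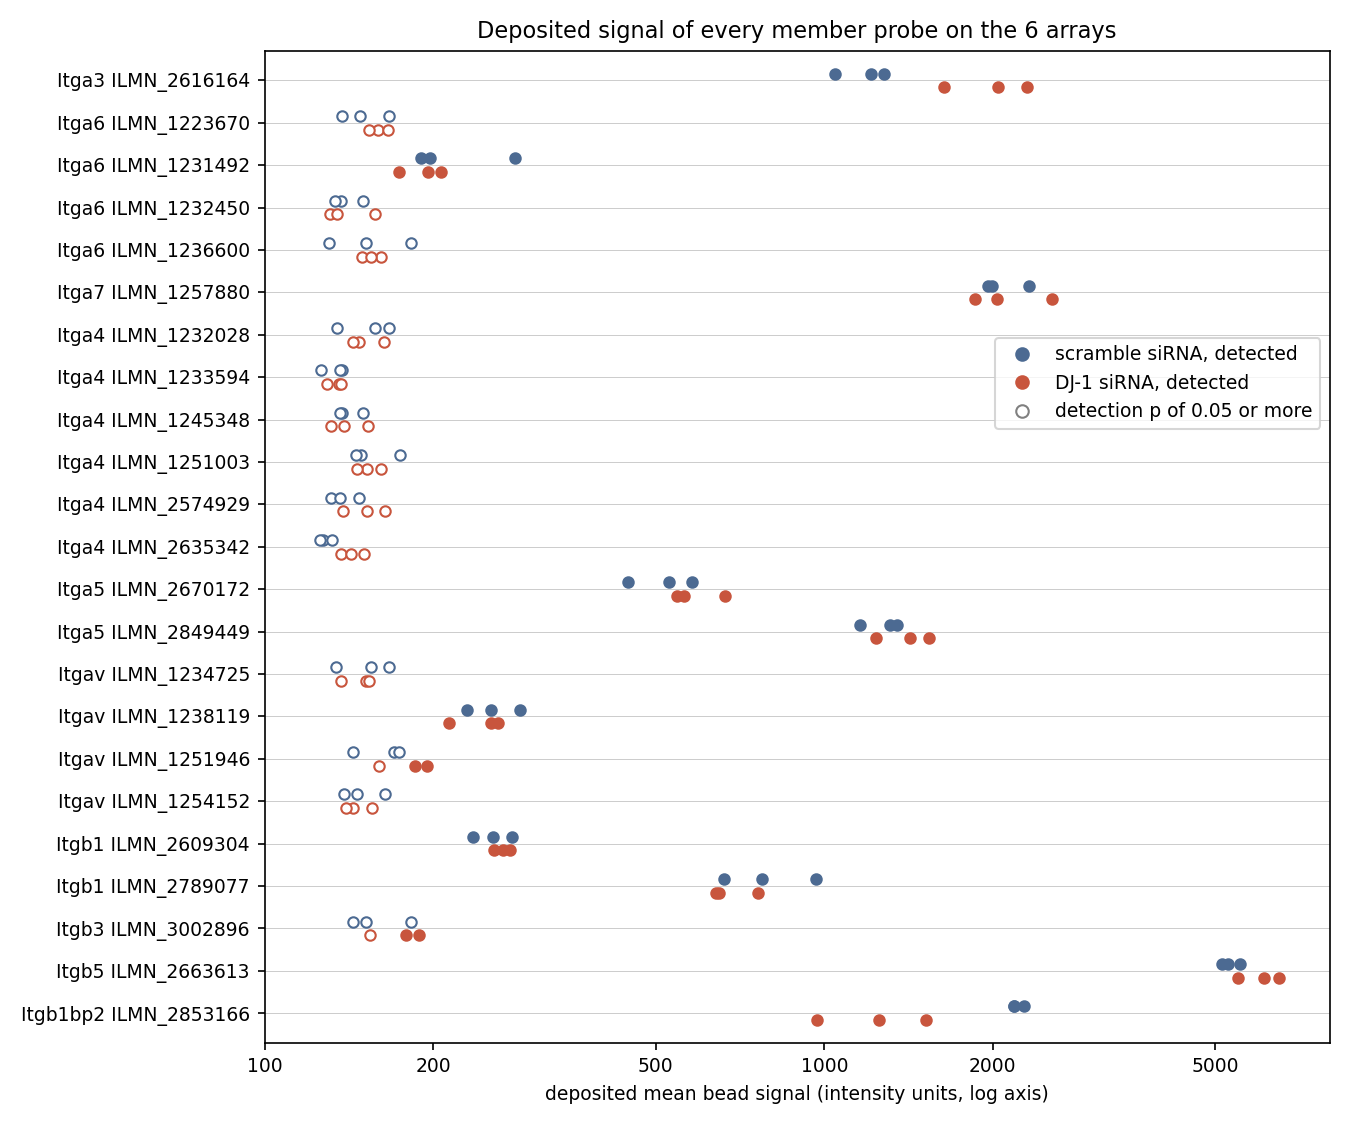
Deposited mean bead signal of each of the 23 member probes on the 6 arrays (log axis), with scramble siRNA in blue and DJ-1 siRNA in red. Filled points have a detection p under 0.05 and open points do not. All 6 Itga4 probes are open on every array, and the red and blue points are apart for Itga3 and Itgb1bp2. Levels of different probes are not comparable.

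Among the β subunits, ITGB1 is the common partner of most α subunits listed here. On ILMN_2609304 its signal was 256.0, 277.2 and 235.7 in the scramble group and 274.3, 266.4 and 257.3 in the knockdown group. On ILMN_2789077 it was 965.9, 772.5 and 661.9 with scramble siRNA and 648.1, 761.0 and 641.8 with *Dj1* siRNA. The groups overlapped on both probes, and scramble replicate 1 stood highest on the second. The log2 fold changes were 0.21 (95% interval -0.09 to 0.52, adjusted p = 0.252 from limma) and -0.18 (95% interval -0.56 to 0.20, adjusted p = 0.420 from limma). The probes of Itgb1 therefore differed in sign and neither was called. The value of ILMN_2789077 was -0.03 without scramble replicate 1, and that of ILMN_2609304 was 0.11 without background correction. With the mean of both probes the log2 fold change was 0.02.

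ITGB5, the β5 subunit that pairs with αV, gave 5129.3, 5532.1 and 5264.6 in scramble and 6093.0, 6496.1 and 5487.9 in knockdown myotubes. The deposited values overlapped, as knockdown replicate 3 lay below scramble replicate 2. The normalized values were 12.36 ± 0.05 and 12.50 ± 0.03 (log2, SD, n = 3) and did not overlap. The log2 fold change of 0.15 (95% interval -0.06 to 0.36) was not called (adjusted p = 0.251 from limma). The call depended on the processing. It was made when each array was shifted to a common 75th percentile without background correction (log2 fold change 0.23, adjusted p = 0.0486 from limma) and with an unmoderated test on the same values (Benjamini-Hochberg adjusted p = 0.0450, where limma gave 0.251). Over all alternatives the log2 fold change ran from 0.12 to 0.29 and the adjusted p from 0.0450 to 0.448.

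ITGB3, the β3 subunit of the vitronectin receptor, was near background on its only probe. The signal was 151.8, 182.5 and 143.8 in the scramble group and 154.1, 188.5 and 179.3 in the knockdown group. It was detected on knockdown replicates 2 and 3 only and was not tested.

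ITGB1BP2, melusin, is expressed in skeletal muscle and heart. Its deposited signal was 2183.2, 2272.9 and 2178.2 with scramble siRNA and 1250.7, 1517.9 and 971.0 with *Dj1* siRNA. Every knockdown array was below every scramble array, and the knockdown arrays were spread more widely. Means after normalization were 11.03 ± 0.04 for scramble and 10.11 ± 0.16 for knockdown (log2, SD, n = 3). Itgb1bp2 fell by 0.93 on the log2 scale (95% interval of the log2 fold change -1.20 to -0.66, adjusted p = 0.00368 from limma), to 52.6% of the scramble signal. It had the smallest adjusted p of the member probes. Of all other 17889 tested probes, those of Tpm1, Hmgn2 and Gpatch11 followed its signal over the 6 arrays most closely, with Pearson correlations of 0.9998, 0.9996 and 0.9989. These were picked as the highest of many, and any difference between the groups that both probes share raises such a correlation. Their log2 fold changes were -0.53 for Tpm1, a tropomyosin of the thin filament, -0.58 for Hmgn2 and -1.06 for Gpatch11.

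**Figure D3:**
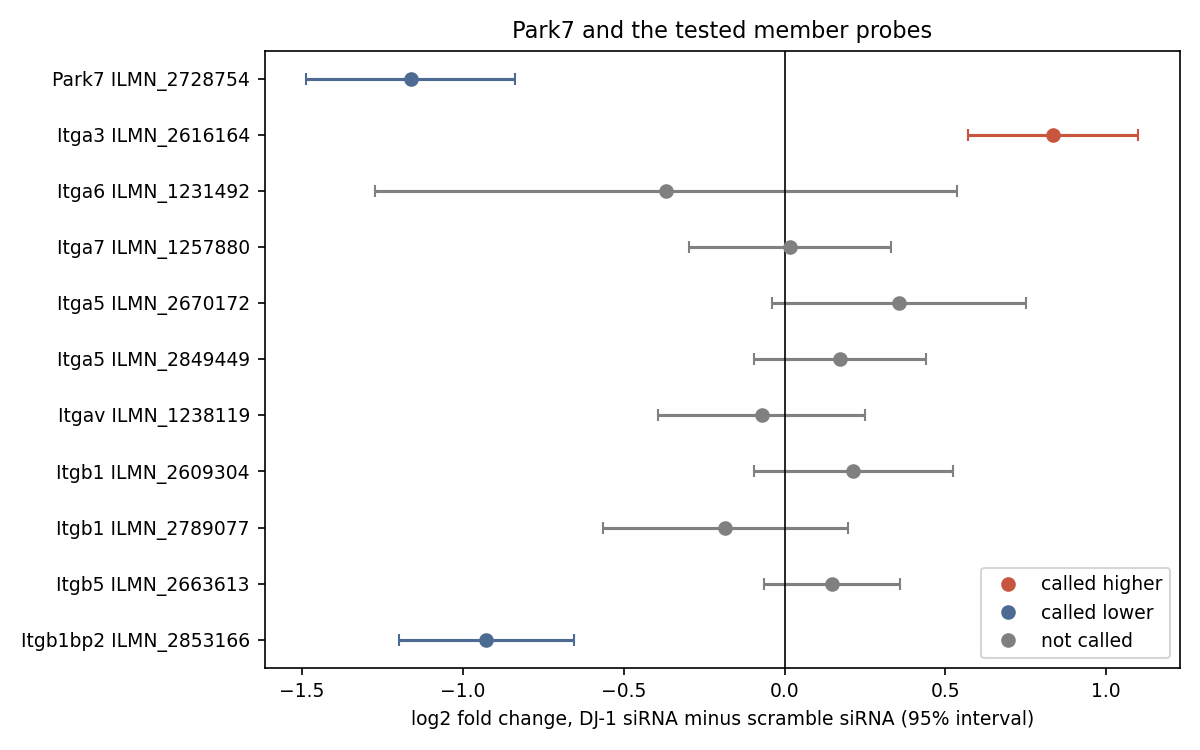
Log2 fold change (DJ-1 siRNA minus scramble siRNA) of Park7 and the 10 tested member probes, with bars for the 95% interval of limma's test. The intervals of Park7, Itga3 and Itgb1bp2 lie wholly on a single side of 0, and those of the other 8 probes include 0.

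Some muscle markers were lower as well. The 22 probes of 14 myotube markers, among them myosins, troponins and creatine kinase, were listed, and 20 of these were tested. After knockdown 10 were called lower, 0 higher and 10 were not called by limma, with a median log2 fold change of -0.37. Over all tested probes 13.6% were called lower, and with single arrays left out 7 to 9 of the marker probes were. Myh1, a fast myosin heavy chain, fell by 2.19 and 1.93 on its tested probes (limma, adjusted p = 0.00284 and 0.00304). Myh4 was called lower (adjusted p = 0.00224 from limma), but it was detected on only 1 knockdown array and the size of its fall is uncertain, with a log2 fold change of -3.72 after and -1.91 without background correction. Myh2 was not detected on any knockdown array and was called lower (limma, adjusted p = 0.00632). The size of its fall is uncertain too, with a log2 fold change of -1.61 after and -0.58 without background correction. The signal summed over the myotube markers was 285184, 292850 and 271437 in scramble and 250630, 283776 and 216034 in knockdown myotubes. The other called probes were those of Myh8 (log2 fold changes -1.11, -1.01 and -1.03), Des (-0.56), Tnnt3 (-0.52) and Tnni2 (-0.31). Actin (Acta1), creatine kinase (Ckm) and the 2 probes of myogenin (Myog) were not called, with log2 fold changes of -0.01, -0.07, 0.22 and -0.11. Of the 20 tested marker probes only 1, of Myog, had a positive log2 fold change. The part of these markers in the fall of Itgb1bp2 was not tested.

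Of 8 tested probes of myoblast and proliferation markers 1 was called, while 6 had a positive log2 fold change (median 0.22). The called probe, of the cyclin Ccnb1, fell by 0.57 (limma, adjusted p = 0.0161). Its adjusted p was 0.0584 without knockdown replicate 1 and 0.0564 without knockdown replicate 3 (0.00105 to 0.0584 over all alternatives), and the other Ccnb1 probe was at -0.31 and was not called. The proliferation markers Cdk1, Top2a (ILMN_1255436) and Mki67 (ILMN_1245049) had log2 fold changes of 0.30, 0.25 and 0.47 and were not called (limma, adjusted p = 0.0713, 0.0782 and 0.0882). On each of these probes the groups did not overlap after normalization, as on 48.5% of all tested probes, but their deposited values overlapped. Without background correction the log2 fold changes were 0.28, 0.14 and 0.15. Cdk1 was called higher under 6 alternatives and Top2a under 3. The stem cell marker Pax7 was not detected on any array. The summed signal of these markers was 7086.4, 7437.5 and 6446.2 in the scramble group and 6562.7, 7832.6 and 6049.6 in the knockdown group. Of the 10 leukocyte marker probes 2 were tested, those of Cd14 and Cd68, with log2 fold changes of -0.59 and 0.52, and neither was called (limma, adjusted p = 0.0626 and 0.169). Without background correction the values were -0.29 and 0.19. Cd14 was called lower under 6 alternatives, and Cd68 was called higher without scramble replicate 2 (adjusted p = 0.0148, against 0.0148 to 0.372 over all alternatives). The pan-leukocyte marker Ptprc was not detected on any array. Of 7 endothelial probes 0 were tested.

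Other genes of the pathway were counted from lists of related genes. The reference is all tested probes, with 30.1% called (16.5% higher, 13.6% lower) and a median log2 fold change of 0.05. Over the 5 lists together 34 of 110 tested probes were called, or 30.9%, which is close to that share. With single arrays left out, 18 to 35 of the list probes and 2559 to 5271 of all tested probes were called. For the integrin subunits that are not members, 10 of 37 probes were tested, from 6 genes. Of these probes 6 were called lower and 1 higher (median log2 fold change -0.73). With single arrays left out 4 to 6 were called lower. The lower calls were those of Itga11 and Itgb6, with several probes each, and of Itga10, so the median rests on few genes. Itga11, a collagen receptor subunit, gave deposited signals on ILMN_2701778 of 4592, 4165 and 4098.1 with scramble and 2274.8, 2402.2 and 2264.2 with *Dj1* siRNA. Its tested probes fell by 0.95 and 0.91 (adjusted p = 0.00342 and 0.00514 from limma). Itgb6, a partner of αV, gave 781.9, 764.7 and 712 with scramble and 428.5, 464.7 and 361.7 with *Dj1* siRNA and fell by 1.04 (adjusted p = 0.00277 from limma). Its 2 other called probes fell by 0.84 and 0.62, and the latter (ILMN_2604243) was not called without scramble replicate 2, knockdown replicate 1 or knockdown replicate 3 (adjusted p = 0.0608, 0.0742 and 0.0790 from limma), nor without background correction (log2 fold change -0.22, adjusted p = 0.0604, and at most 0.0856 over the alternatives for single probes). Itga10 fell by 0.93 (adjusted p = 0.0365 from limma) but was called with only 1 of the 6 arrays left out, knockdown replicate 2, and its adjusted p was 0.0739 to 0.114 without any other array. The platelet subunit Itga2b rose by 0.97 (adjusted p = 0.00720 from limma), or by 0.48 without background correction.

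Laminins, which are ligands of α3β1, α6β1 and α7β1, were listed with other basement membrane genes. The list had 18 tested probes, of which 6 were called higher and 2 lower (median 0.25). Only 3 were called higher without scramble replicate 2 or without any of the knockdown replicates, and 4 without scramble replicate 3. Nidogen (Nid1), which links laminin to collagen, rose by 0.84 and 1.44 on its probes (adjusted p = 0.00513 and 0.00902 from limma), or by 0.73 and 0.80 without background correction. Of the laminin chains only Lama5 was called higher, with a rise of 0.78 (adjusted p = 0.0111 from limma). Lama1, the only laminin chain called lower, was not detected on any knockdown array. The size of its fall is uncertain, with a log2 fold change of -1.35 after and -0.47 without background correction. The call was lost with the unmoderated test (adjusted p = 0.0544, against 0.0108 from limma and 0.00239 to 0.0544 over all alternatives). Of perlecan (Hspg2), the probe ILMN_2578369 fell by 1.58 (adjusted p = 0.00285), with a log2 fold change of -0.76 without background correction, while a different probe (ILMN_2685329) rose by 0.38 (adjusted p = 0.0368). The latter was called with scramble replicate 1 left out, but not without any of the other arrays (adjusted p = 0.0738 to 0.121). The third tested Hspg2 probe was at 0.33 and was not called (adjusted p = 0.0723). The mean of the Hspg2 probes was at -0.29 and was called lower (adjusted p = 0.0463 from limma).

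Fibronectin and other ligands had 28 tested probes, of which 3 were called higher and 5 lower (median 0.18), or 3 to 4 and 2 to 4 with single arrays left out. The thrombospondins Thbs1 and Thbs2 fell by 0.98 and 0.83 (adjusted p = 0.00363 and 0.00678 from limma). A probe of fibronectin (Fn1, ILMN_2646618) rose by 0.86 (adjusted p = 0.0148), but the mean over the tested Fn1 probes was 0.36 and was not called (adjusted p = 0.0664, the highest of all alternatives, whose lowest was 0.000986), nor was the probe called with the unmoderated test. A dim probe of Vcam1, the α4 ligand, rose by 0.73 (adjusted p = 0.00863), or by 0.31 without background correction, and the other tested Vcam1 probe was at 0.39 and was not called (adjusted p = 0.0639). Fibrillin (Fbn1) had a probe that rose by 2.09 (adjusted p = 0.0125) and a probe that fell by 0.45 (adjusted p = 0.0220), so its direction differed between probes. The first was detected on 2 scramble arrays, had a log2 fold change of 0.99 without background correction and was not called with the unmoderated test (adjusted p = 0.0636, against 0.000297 to 0.0636 over all alternatives). The fall was no longer called without scramble replicate 3 (adjusted p = 0.0516), knockdown replicate 1 (0.0838) or knockdown replicate 3 (0.0567). Nor was it called with the replicate block (0.0576), after a 75th percentile shift of background corrected signals (0.0786) or with no filter (0.0501). Its adjusted p ran from 0.000670 to 0.0838 over all alternatives. The mean of the tested Fbn1 probes was at 0.82 and was called higher (adjusted p = 0.0330 from limma).

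Cytoplasmic proteins of integrin adhesions, with the melusin homologue Chordc1, had 37 tested probes, of which 3 were called higher and 2 lower (median -0.10). Lims2, a partner of integrin-linked kinase, rose by 0.75 and 0.68 on 2 of its 3 tested probes (adjusted p = 0.0178 and 0.0195 from limma), while the third was at 0.43 and was not called (adjusted p = 0.0545). Of the others, paxillin (Pxn) rose by 0.73 (adjusted p = 0.0275), or by 0.41 without background correction, and Parva and Chordc1 fell by 0.38 and 0.60 (adjusted p = 0.0367 and 0.0468). All 5 calls were lost when particular arrays were left out. Without knockdown replicate 1 the counts were 0 and 0, and the adjusted p was 0.0565 and 0.0731 for Lims2, 0.0517 for Pxn, 0.132 for Parva and 0.0866 for Chordc1. Over all alternatives it ran from 0.00167 to 0.0613 and 0.000787 to 0.0731 for Lims2, 0.00766 to 0.0853 for Pxn, 0.00630 to 0.132 for Parva and 0.00352 to 0.133 for Chordc1. The talins, vinculin (Vcl) and focal adhesion kinase (Ptk2) were not called.

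Membrane proteins that associate with integrins sideways, such as tetraspanins, had 17 tested probes, of which 5 were called higher and 1 lower (median 0.16), or 3 to 5 and 0 to 1 with single arrays left out. Basigin (Bsg) rose by 1.69 and 1.53 on its probes (adjusted p = 0.00459 and 0.00691 from limma), or by 0.71 and 0.61 without background correction. Each of these was detected on 2 scramble arrays and on all knockdown arrays. Cd47, which binds αV integrins, rose by 0.56 (adjusted p = 0.0111). Caveolin-3 (Cav3), the muscle caveolin, fell by 0.59 (adjusted p = 0.0117), and its adjusted p was 0.0519 without knockdown replicate 1 (0.00133 to 0.0519 over all alternatives). The tetraspanin Cd151, a partner of α3β1, had log2 fold changes from -0.06 to 0.08 on its 3 probes and was not called.

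**Figure D4:**
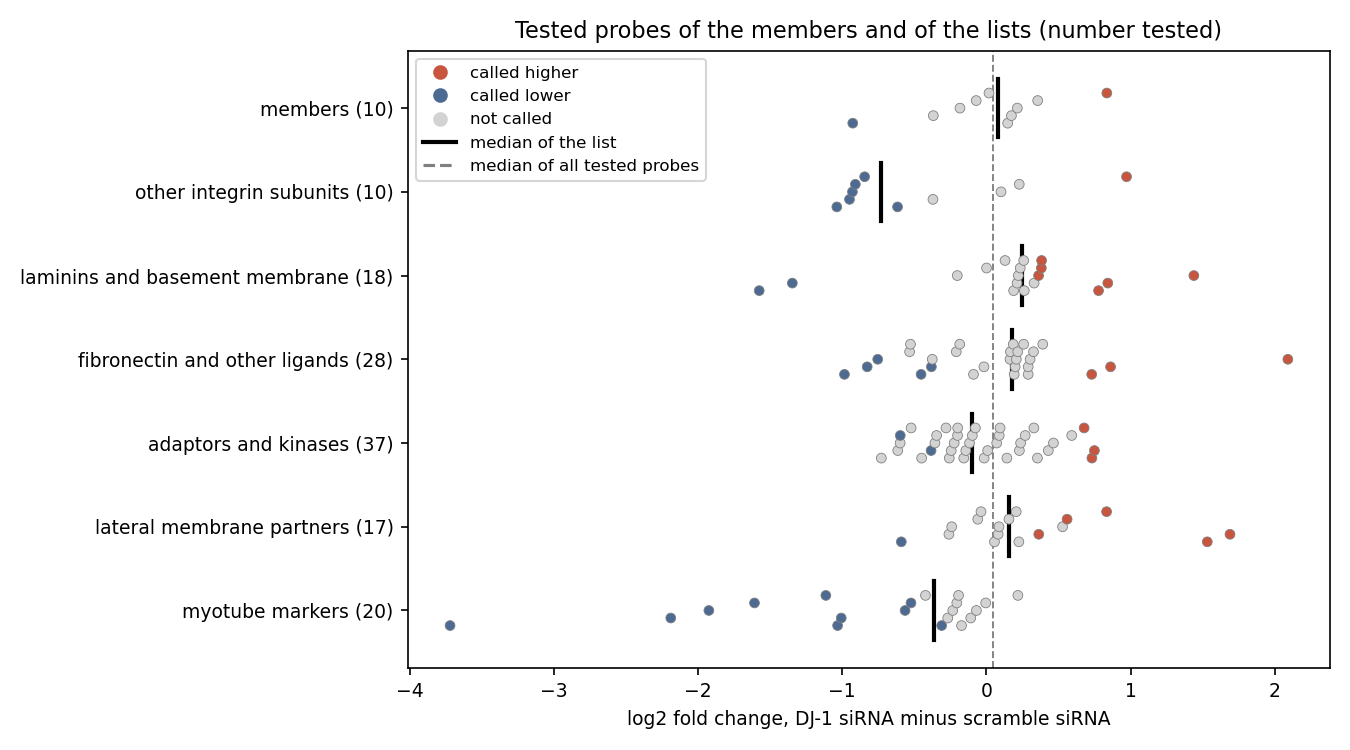
Log2 fold change (DJ-1 siRNA minus scramble siRNA) of every tested probe of the members, of the 5 pathway lists and of the myotube markers, with the number tested in brackets. Red points were called higher, blue points lower and grey points were not called, the black bar is the median of a list and the dashed line the median of all tested probes (0.05). The medians of the other integrin subunits (-0.73, from 6 tested genes) and the myotube markers (-0.37) lie lowest.

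The member probes that were tested were all designed on RefSeq transcripts. Of the 23 member probes, 14 carry the accession of a RefSeq transcript and 9 that of a cDNA clone. Of the RefSeq probes 10 were tested, whereas 0 of the clone probes were, and 1 of the 9 was detected on any array. The spread between arrays also differed among the tested probes. The SD was larger in the scramble group for 7 of the 10 tested probes, and it ran from 0.04 to 0.69 in the scramble group and from 0.02 to 0.46 in the knockdown group (log2, n = 3). Among these member probes the widest spread was that of the dim Itga6 probe. The share of all tested probes with a larger SD in scramble was not counted. Over all tested probes, scramble arrays correlated with each other by 0.982 to 0.988 and knockdown arrays by 0.990 to 0.992.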

How the data were processed

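Total RNA from C2C12 myotubes was labelled and hybridized to an Illumina mouse BeadChip, and the authors quantified the scans in GenomeStudio. The deposited signal intensity is the mean over beads, without normalization, beside a deposited detection p-value, the standard error over beads and the bead number.

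In R 4.3.3, limma 3.58.1 was used for background correction (neqc, offset 16), quantile normalization, log2 and the moderated test. The test covered the 17890 of 45281 probes detected (p under 0.05) on 3 or more arrays, with Benjamini-Hochberg adjustment across these. The script was tested on simulated data. Genes were named from the RefSeq table of GRCm38.p6 (32345 probes), otherwise as in the report. Named probes are all member probes, Park7 and, per list, the 3 higher and 3 lower called probes with the smallest adjusted p among those detected throughout a group and without overlap, and the 4 smallest per marker list. Those of Tpm1, Hmgn2 and Gpatch11 were named for having the highest correlations with Itgb1bp2. Probes of Acta1, Ckm, Myog, Myh8, Des, Tnnt3, Tnni2, Pax7, Ptprc, Cd151, Vcl, Ptk2, the talins and Itga10 were named after their values were seen. So were the higher and the uncalled Hspg2 probes, the uncalled Vcam1, Ccnb1 and Lims2 probes and the other Itgb6 probes. Members and lists were chosen with earlier results of these data known. Alternatives were other background corrections, scalings, filters and tests, the replicate number as a block, leaving out each array, and the mean of a gene's probes.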

Additional observations from a re-analysis of the deposited data

How the results depend on the processing

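The calls of Park7, Itga3 and Itgb1bp2 were kept under all 16 alternatives. The largest adjusted p among these (limma or the t-test) was 0.0206, 0.0247 and 0.0214.

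Itgb5 was also called higher, so that 2 member probes were, after a 75th percentile shift of uncorrected signals and with an unmoderated t-test, unadjusted and after Benjamini-Hochberg. The cause was not tested. Signs of uncalled probes turned with single arrays left out, where log2 fold changes ran from -0.69 to 0.00468 for Itga6, from -0.0412 to 0.125 for Itga7 and from -0.15 to 0.0394 for Itgav. With the mean of a gene's probes, which merges probes of opposite sign, Itgb1 was at 0.015 and was not called. Fbn1 was at 0.82 and was called higher (adjusted p = 0.0330 from limma).

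With no filter 1908 of 45281 probes were called higher and 1611 lower. With single arrays left out the counts were 1387 to 2859 and 1172 to 2412. Of the pathway probes 22 were called with no filter, 55 with the unadjusted t-test and 18 to 35 with single arrays left out, against 34. Across all alternatives the numbers called higher and lower were 1 and 3 to 6 for other integrin subunits, 3 to 9 and 1 to 2 for laminins and basement membrane, 1 to 8 and 2 to 7 for ligands, 0 to 8 and 0 to 8 for adaptors and kinases, and 3 to 7 and 0 to 3 for membrane partners. Of the 34 called pathway probes 18 stayed called with each array left out. No scaling moved the median of all probes beyond 0.07.

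After the group means were removed, arrays of the same replicate number correlated by 0.0537, 0.0474 and 0.0199. With the replicate block 2361 probes were called higher and 1989 lower, the member calls were the same and 26 pathway probes were called. Signal close to background limits the values of Itga4, Itgb3 and Itga6.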
